A study of Mus musculus with 6 samples.

Results

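Genes of extracellular nucleotide and adenosine signalling were examined in Tet1/Tet2 siRNA-treated BMMSCs. They are 10 genes picked by name, 6 P2Y receptor genes (P2ry1, P2ry2, P2ry6, P2ry12, P2ry13 and P2ry14), 2 adenosine receptor genes (Adora2a and Adora2b) and 2 ectonucleotidase genes (Entpd1 and Nt5e), out of 36870 gene symbols in the expression table. All 10 were among the 13266 genes whose mean reached 0.1 RPKM (reads scaled by gene length and by the reads mapped in that library, so that genes and libraries can be compared). BMMSCs are the adherent cells grown out of bone marrow, here of C57BL/6 mice whose age is not given in the labels. Non-adherent cells were washed off after 48 h and the rest were cultured for another 14 days. The labels give the cells as passage 2 and the methods as passage 1. RNA-seq compared 3 control libraries with 3 libraries from cells that received siRNAs against Tet1 and Tet2. The labels name a non-targeting siRNA as the control treatment, whereas the sequencing methods call those cells vehicle-treated. The knockdown was transient, in a mixed primary culture, and nothing says whether the 3 libraries of a group came from separate cultures or mice, so p-values measure only the spread between these libraries.

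Cells release ATP and other nucleotides, which act on P2Y receptors at the cell surface, a family that signals through G proteins. Entpd1 encodes CD39, which hydrolyses extracellular ATP and ADP to AMP, and Nt5e encodes CD73, which converts AMP to adenosine and is widely used as a surface marker of mesenchymal stromal cells. Adenosine then acts on its own G protein-coupled receptors, among which the products of Adora2a and Adora2b raise cyclic AMP through Gs. In bone marrow, both stromal and hematopoietic cells carry parts of this system.

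Tet enzymes act on methylated cytosine, which in mammals lies mostly in CG dinucleotides, so the promoter windows of the genes are shown with each CG in capitals. The windows run from 250 bases before an annotated start to 50 bases from it on, and come from RefSeq on GRCm38.p6. A window was found for 8 of the 10 genes, and the windows of Adora2b, P2ry1 and Entpd1 are shown because these 3 genes had the largest changes on the log2 scale, and that of P2ry13 as a gene with few CG. The Adora2b window is chr11:62248734-62249033 on the plus strand, that of P2ry1 chr3:61002535-61002834 on the plus strand, the upstream window of Entpd1 chr19:40612116-40612415 on the plus strand, and that of P2ry13 chr3:59210833-59211132 on the minus strand. Each is written 5′ to 3′ on the strand of its gene.
Adora2b: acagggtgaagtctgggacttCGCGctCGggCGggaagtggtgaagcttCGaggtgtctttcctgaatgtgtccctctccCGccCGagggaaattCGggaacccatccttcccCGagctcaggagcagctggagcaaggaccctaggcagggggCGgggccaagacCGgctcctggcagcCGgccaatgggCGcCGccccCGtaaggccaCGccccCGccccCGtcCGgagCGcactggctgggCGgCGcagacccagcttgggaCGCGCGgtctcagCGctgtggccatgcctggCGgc
P2ry1: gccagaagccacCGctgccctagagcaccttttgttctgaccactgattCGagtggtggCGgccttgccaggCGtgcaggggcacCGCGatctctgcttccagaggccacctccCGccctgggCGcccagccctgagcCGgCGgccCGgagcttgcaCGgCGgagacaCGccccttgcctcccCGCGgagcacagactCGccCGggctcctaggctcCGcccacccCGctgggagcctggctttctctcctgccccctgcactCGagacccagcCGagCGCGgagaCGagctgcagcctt
Entpd1: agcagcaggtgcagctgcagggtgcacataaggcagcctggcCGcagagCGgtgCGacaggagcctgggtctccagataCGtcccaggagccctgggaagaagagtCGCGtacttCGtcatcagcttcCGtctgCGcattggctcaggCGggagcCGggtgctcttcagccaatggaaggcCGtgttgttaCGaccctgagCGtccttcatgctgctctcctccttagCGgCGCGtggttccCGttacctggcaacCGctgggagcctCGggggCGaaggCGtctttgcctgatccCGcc
P2ry13: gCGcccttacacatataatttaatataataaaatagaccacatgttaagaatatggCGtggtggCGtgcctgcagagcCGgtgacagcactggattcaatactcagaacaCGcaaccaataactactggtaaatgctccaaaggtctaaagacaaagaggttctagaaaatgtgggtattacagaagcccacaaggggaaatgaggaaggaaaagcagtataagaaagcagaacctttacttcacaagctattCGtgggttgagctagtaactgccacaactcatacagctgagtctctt

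The Adora2b window held 27 CG, the P2ry1 window 25 and the Entpd1 window 23, whereas the P2ry13 window held 6. Over all 32851 windows of 27025 genes the median was 7, with quartiles of 3 and 20, and 5.4% of windows held none. The Adora2b window thus had more CG than 84.5% of all windows, P2ry1 more than 81.6%, Entpd1 more than 78.5% and P2ry13 more than 43.6%. The letters CG read the same on both strands. P2ry2 had 30 and 28 CG in its 2 windows and Nt5e 23 in its 1 window, while P2ry12 had 4 and the 4 windows of P2ry14 between 1 and 4. A second Entpd1 window, chr19:40659520-40659819, held 10 CG. CG-rich windows thus belonged both to genes that were higher after the siRNAs (P2ry1, P2ry2, Entpd1) and to Adora2b, which was lower. No methylation was measured in these libraries, and P2ry6 and Adora2a are not shown.

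**Figure D1:**
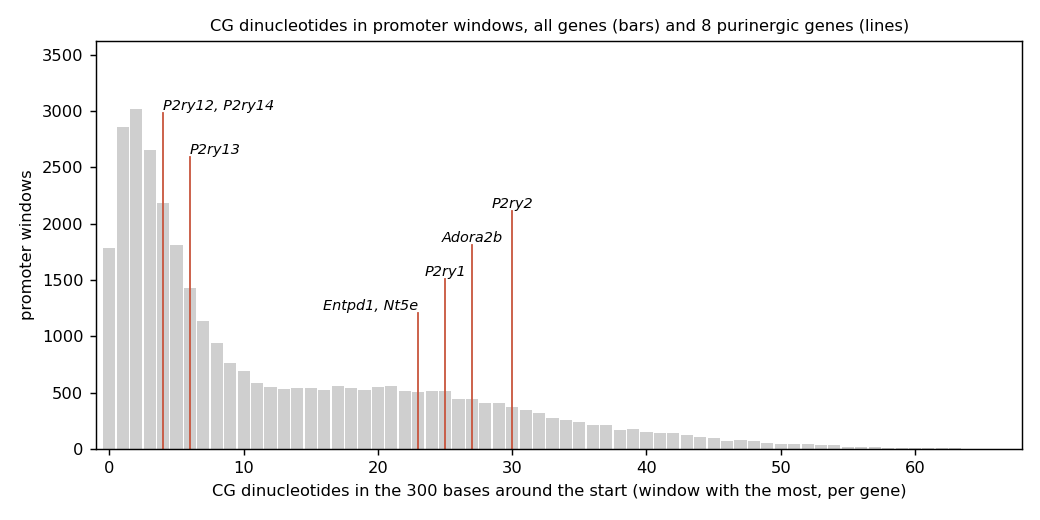
Number of promoter windows (y axis) by the number of CG dinucleotides in their 300 bases (x axis), for all 32851 windows as grey bars. Red lines mark the window with the most CG for each of 8 genes: P2ry12 and P2ry14 at 4 and P2ry13 at 6 sit among the bulk of windows, and Entpd1 and Nt5e at 23, P2ry1 at 25, Adora2b at 27 and P2ry2 at 30 lie above the upper quartile of 20.

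The targeted genes were checked first. Tet2 was at 2.57, 4.08 and 3.71 RPKM in control libraries and at 0.358, 0.238 and 0.202 RPKM after the siRNAs, and Tet1 was at or under 0.098 RPKM in every library. P2rx7, an ion channel opened by ATP that is not a P2Y receptor, fell from 31.6 ± 1.64 to 7.18 ± 1.15 RPKM (SD, n = 3 each). The table gives no read totals. Low RPKM values came closest to whole reads at depths of 32400000 to 38500000 reads per library. Only 48.7% to 60.3% of them lay within 0.1 of a whole read. At a depth fixed in advance 20% would by chance, but each depth was picked to make this share highest. The depth is thus an estimate and counting error could not be computed. Pearson's r over the genes tested was 0.992 to 0.997 between replicates and 0.949 to 0.969 across groups.

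Of the 6 P2Y receptor genes, 4 were higher, with Entpd1, in Tet1/Tet2 siRNA-treated BMMSCs than in control BMMSCs, and both adenosine receptor genes were lower. Tested with limma, with the Benjamini-Hochberg adjustment over all genes tested, 5 of the 10 genes were higher at an adjusted p under 0.05. They were P2ry1, P2ry2, P2ry6, P2ry13 and Entpd1, where 14.7% of all genes tested were higher. Only P2ry1 and Entpd1 kept this call when libraries were scaled to macrophage markers or to Gapdh. P2ry6 changed sign under the former. Relative to Gapdh, the log2 fold changes of P2ry2, P2ry6 and P2ry13 did not shrink (0.41, 0.32 and 0.33). A further 2 were lower (Adora2a and Adora2b), where 29.8% of all genes were lower, and P2ry12, P2ry14 and Nt5e did not pass. The median log2 fold change of the 10 genes was 0.30, against -0.09 over all genes tested, and the changes were modest, all inside the middle 95% of all genes (-1.55 to 0.73). Log2 fold changes here are of RPKM plus a pseudocount of 1, which makes differences of weakly expressed genes look smaller. The values of the groups did not overlap for 8 of the 10 genes, 6 of them higher after the siRNAs and 2 lower, where 19.8% of all genes tested were higher and 35.9% lower without overlap. The study called genes altered at p under 0.05 and over 2-fold, without naming a test or pseudocount. With an unadjusted limma p and the fold of RPKM plus 1, 0 of the 10 genes were lower and 0 higher. Of all genes, 5.63% and 0.95% were called so. With the ratio of mean RPKM as the fold, Adora2a was called lower and P2ry1 higher. Calls over all genes then went from 873 to 1930. Without the fold threshold, 3 of the 10 genes were lower at that unadjusted p (Adora2a, Adora2b and Nt5e) and 5 higher, where 34.6% of all genes were lower and 17.7% higher.

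**Figure D2:**
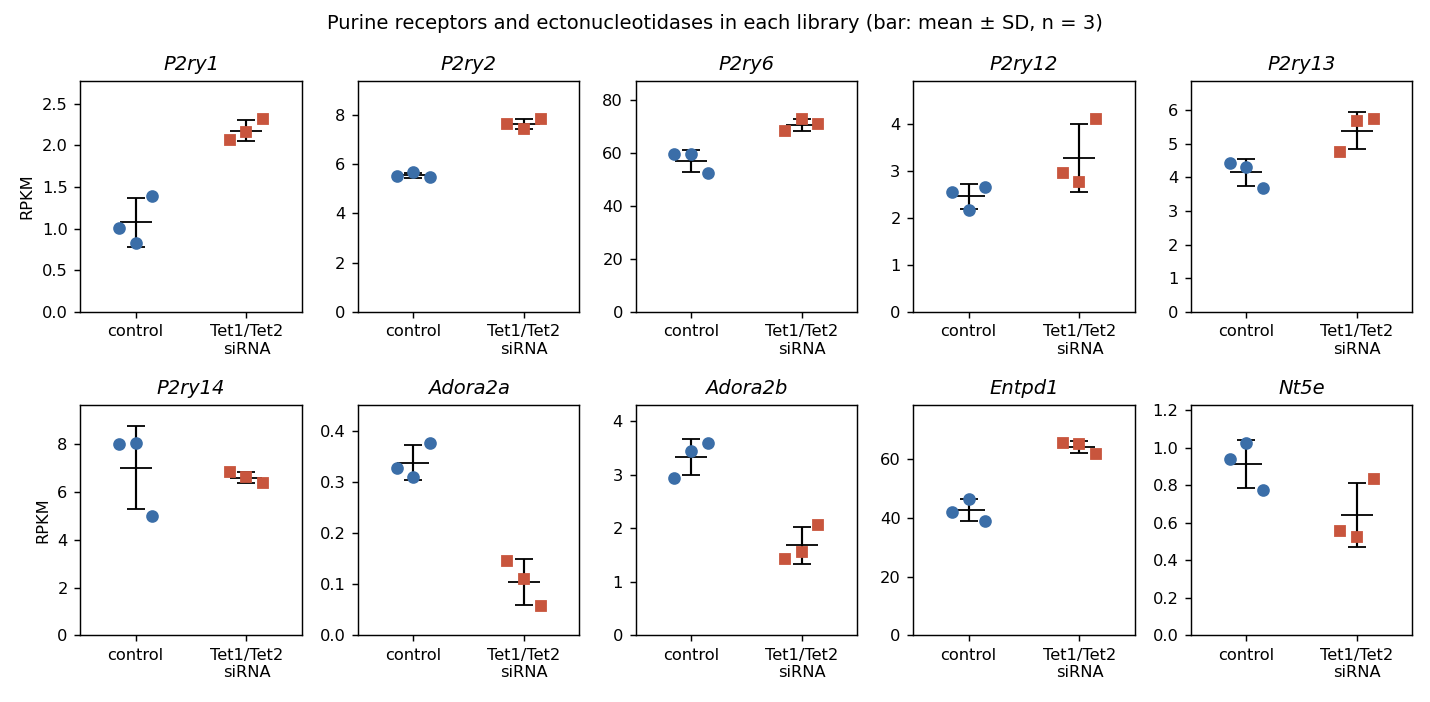
RPKM (y axis, from 0, a scale of its own for each gene) of the 10 genes in the 3 control libraries (blue circles) and the 3 Tet1/Tet2 siRNA libraries (red squares), with the mean and SD as bars. The groups are apart for every gene except P2ry14 and Nt5e, with siRNA libraries above for P2ry1, P2ry2, P2ry6, P2ry12, P2ry13 and Entpd1 and below for Adora2a and Adora2b.

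**Figure D3:**
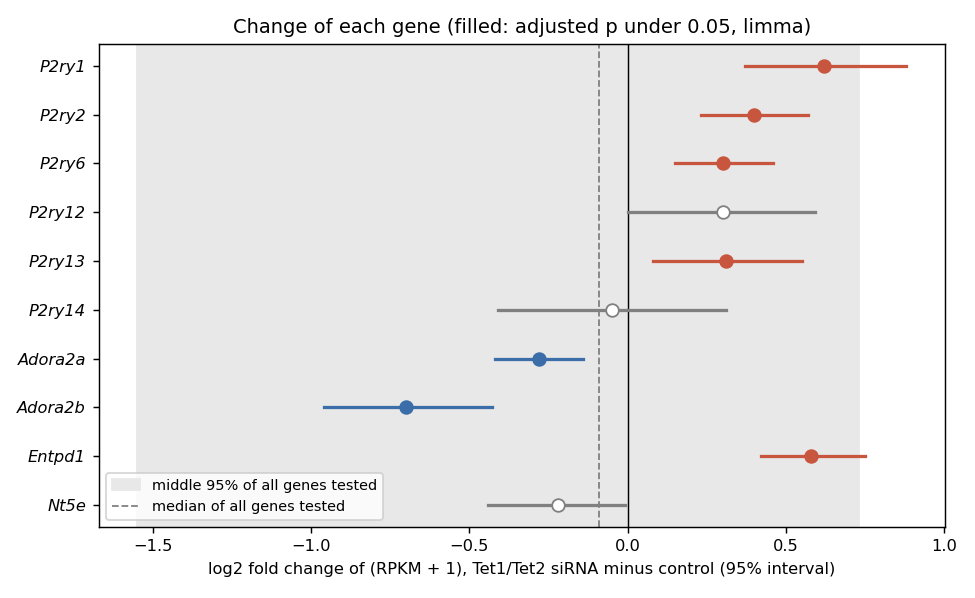
Log2 fold change of RPKM + 1 (x axis, Tet1/Tet2 siRNA minus control) of each gene, with its 95% interval from limma. Filled points had an adjusted p under 0.05, the dashed line is the median of all 13266 genes tested at -0.09 and the grey band their middle 95%. Adora2b lies lowest at -0.70 and P2ry1 highest at 0.62, and P2ry6, at 0.30, is one whose sign turned under a scaling to macrophage markers, as did that of P2ry14, at -0.05, under other scalings.

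P2ry1, P2ry2 and P2ry6, which couple to Gq, were higher after the siRNAs. P2ry2 and P2ry6 lost their calls when libraries were scaled to macrophage markers or to Gapdh, and P2ry6 changed sign under the former. Under the latter the size of their changes was kept. P2ry1 (chr3:61002795-61008982, GRCm38), a receptor for ADP, was at 1.00, 0.824 and 1.40 RPKM in control libraries and at 2.06, 2.16 and 2.31 RPKM in siRNA libraries. Every siRNA library was above every control library, and the mean RPKM was 2.03 times that of control. Its log2 fold change was 0.62 (standard error 0.11, 95% interval 0.37 to 0.88, limma, Benjamini-Hochberg adjusted p = 0.00225). By the depth estimate these values rest on 105 to 176 reads in control libraries and 307 to 324 reads in siRNA libraries. The exons of P2ry1 share 992 of their 4291 bases with Gm37035, a gene annotated on the opposite strand, and 24.6% of the 50-base words of its longest transcript occur in that gene. The use of strand in counting is not given in the sources used here, so reads of the pair cannot be told apart.

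P2ry2 (chr7:100996568-101012866), a receptor for ATP and UTP, varied little within a group. It was at 5.53, 5.67 and 5.46 RPKM in control libraries and at 7.65, 7.44 and 7.82 RPKM in siRNA libraries, which lay above all controls. Its log2 fold change came to 0.40 (standard error 0.07, limma adjusted p = 0.00316), but to 0.08 (adjusted p = 0.538) when scaled to macrophage markers. Relative to Gapdh, P2ry2 had a log2 fold change of 0.41 (limma adjusted p = 0.0671). Its neighbour P2ry6 (chr7:100937630-100974649), a receptor for UDP, lies 21.9 kb away on the same strand and was the most abundant of the 10 genes, at a level above 91.3% of all genes tested. P2ry6 was at 59.5, 59.4 and 52.3 RPKM in control libraries and at 68.3, 72.6 and 70.7 RPKM in siRNA libraries. The groups did not overlap, and the log2 fold change was 0.30 (standard error 0.07, limma adjusted p = 0.00766). It was -0.06 (adjusted p = 0.374) when libraries were scaled to macrophage markers, and 0.32 (limma adjusted p = 0.0759) relative to Gapdh.

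P2ry12, P2ry13 and P2ry14, which couple to Gi, lie side by side on the minus strand of chromosome 3 and gave weaker differences. P2ry13 (chr3:59207892-59210882), a receptor for ADP, was at 4.43, 4.32 and 3.70 RPKM in control libraries and at 4.77, 5.70 and 5.73 RPKM in siRNA libraries. All siRNA libraries were above the controls, by a narrow margin for siRNA replicate 1, and the log2 fold change was 0.31 (standard error 0.10, limma adjusted p = 0.0374). The call was lost when any of 4 libraries was left out, with adjusted p = 0.0753 without control replicate 2, 0.0867 without control replicate 3, 0.124 without siRNA replicate 2 and 0.0967 without siRNA replicate 3.

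P2ry12 (chr3:59216272-59262871), the ADP receptor of platelets and microglia, is separated from P2ry13 by a gap of 5.4 kb. It was at 2.56, 2.17 and 2.67 RPKM in control libraries and at 2.97, 2.77 and 4.11 RPKM in siRNA libraries, the last standing well above the rest. The groups did not overlap, but the log2 fold change of 0.30 (standard error 0.13) did not pass the test (adjusted p = 0.0972 from limma). With the replicate number as a replicate block it passed, at a log2 fold change of 0.30 and an adjusted p of 0.0327. P2ry14 (chr3:59113855-59153618), a receptor for UDP-glucose, lies 54.3 kb from P2ry13. It was at 8.01, 8.05 and 5.00 RPKM in control libraries and at 6.83, 6.63 and 6.38 RPKM in siRNA libraries. Control replicate 3 was thus below and the other controls above all siRNA libraries. The log2 fold change was -0.05 (standard error 0.16, 95% interval -0.41 to 0.31, limma adjusted p = 0.811). Without control replicate 3 it was -0.25 (adjusted p = 0.0386), and without either of the other controls 0.05. The 3 genes lie within the span of Med12l on the opposite strand, which shares 9 exon bases with P2ry12 and none with the others and was at 0.099 to 0.254 RPKM.

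Both adenosine receptor genes fell. Adora2b (chr11:62248984-62266453) was at 2.95, 3.44 and 3.59 RPKM in control libraries and at 1.42, 1.55 and 2.06 RPKM in siRNA libraries. No siRNA library reached the lowest control, and the mean RPKM of control was 1.98 times that after the siRNAs. The log2 fold change of -0.70 (standard error 0.11, 95% interval -0.96 to -0.43, limma adjusted p = 0.00153) was the largest of the 10 genes in size on this scale. Adora2a (chr10:75316877-75334784) was the least abundant of the 10, at 0.328, 0.311 and 0.377 RPKM in control libraries and 0.146, 0.110 and 0.057 RPKM in siRNA libraries. These are about 26 to 32 reads per control library and 5 to 15 reads per siRNA library by the depth estimate. The ratio of the mean RPKM was 3.25, control over siRNA, while the log2 fold change with the pseudocount was -0.28 (standard error 0.06, limma adjusted p = 0.00715). The call for Adora2a was lost with quantile-normalized libraries (adjusted p = 0.0738 at a log2 fold change of -0.16) and when all 36870 genes entered the test (adjusted p = 0.0549). Which of the 2 receptor genes fell more depended on the pseudocount. The log2 ratio of Adora2a to Adora2b was -1.57, -1.76 and -1.74 in control libraries and -1.08, -1.20 and -1.53 in siRNA libraries with a pseudocount of 1, a difference of 0.42 (exact two-sided permutation p = 0.1, the smallest that 3 against 3 allows). With a pseudocount of 0.1 the difference was -0.17 (exact permutation p = 0.8), so no order between the pair was established.

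Of the 2 steps from extracellular ATP to adenosine, the gene of the first rose and that of the second did not pass the test. Entpd1 (chr19:40612366-40741602), for the first step, was at 42.1, 46.4 and 39.0 RPKM in control libraries and at 65.4, 65.1 and 61.9 RPKM in siRNA libraries. The gap between the groups was wider than the spread within either, and the mean rose 1.51-fold in RPKM. The log2 fold change was 0.58 (standard error 0.07, 95% interval 0.42 to 0.75, limma adjusted p = 0.000368), the lowest adjusted p of the 10 genes. Nt5e (chr9:88327197-88372092), for the second step, was expressed at a level above only 14.4% of the genes tested, at 0.937, 1.02 and 0.774 RPKM in control libraries and at 0.558, 0.526 and 0.834 RPKM in siRNA libraries. siRNA replicate 3 lay within the range of the controls and the other siRNA libraries below it. The log2 fold change of -0.22 (standard error 0.09) did not pass the test (adjusted p = 0.0869 from limma), but without siRNA replicate 3 it was -0.31 (adjusted p = 0.0272). The RPKM of Entpd1 was 45.0, 45.4 and 50.4 times that of Nt5e in control libraries and 117, 124 and 74.2 times in siRNA libraries. Their log2 ratio, with the pseudocount, was higher by 0.81 in siRNA libraries, and the groups did not overlap (exact two-sided permutation p = 0.1, the smallest that 3 against 3 allows).

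In control BMMSCs the 10 genes ranked, by mean RPKM, as P2ry6, Entpd1, P2ry14, P2ry2, P2ry13, Adora2b, P2ry12, P2ry1, Nt5e and Adora2a. Neighbours in this order had overlapping libraries only for P2ry14 with P2ry2 and for P2ry1 with Nt5e. In siRNA libraries P2ry2 stood above P2ry14, and P2ry12 and P2ry1 stood above Adora2b, with overlap only between P2ry1 and Adora2b. Means ranged from 57.1 to 0.339 RPKM in control and from 70.5 to 0.104 RPKM after the siRNAs. The share of P2ry6 among the P2Y receptor transcripts changed little. P2ry6 accounted for 73.4% to 74.1% of their summed RPKM in control libraries and for 72.9% to 74.6% in siRNA libraries, while the sum went from 70.5 to 81.1 RPKM up to 92.5 to 97.3 RPKM. P2ry1 went from 1.02% to 1.98% of the sum in control libraries to 2.22% to 2.38% in siRNA libraries. P2ry14 made up 7.1% to 10.0% in control libraries and 6.57% to 7.38% in siRNA libraries, with overlap. These are sums in a bulk culture, in which fewer cells of a type and less RNA per cell cannot be told apart.

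Further genes of the pathway moved in both directions. Of 9 other metabotropic purine receptor genes, 8 were in the table and 3 were tested, of which 0 were lower and 1 was higher by limma at an adjusted p under 0.05, and at an unadjusted p under 0.05 too. This was Gpr34, a receptor related to the P2Y family, which rose from 1.60 ± 0.368 to 3.72 ± 0.780 RPKM (SD, n = 3; log2 fold change 0.86, adjusted p = 0.0019 from limma). Adora3, the gene of a further adenosine receptor, did not pass, at 0.419 ± 0.105 RPKM in control and 0.633 ± 0.172 RPKM after the siRNAs (SD, n = 3; adjusted p = 0.12 from limma). Of 25 genes that handle nucleotides and adenosine, 19 were tested (median log2 fold change -0.16). Of these, 6 were lower and 5 higher at an adjusted p under 0.05, where 29.8% of all genes were lower and 14.7% higher. The 3 with the lowest p among those lower were Alpl, the tissue-nonspecific alkaline phosphatase that also dephosphorylates nucleotides, Enpp2, which encodes the ectoenzyme autotaxin, and Slc28a2, a sodium-coupled purine nucleoside transporter. Alpl went from 3.86 ± 0.411 to 0.421 ± 0.167 RPKM, Enpp2 from 3.87 ± 0.107 to 0.702 ± 0.183 RPKM and Slc28a2 from 11.6 ± 0.545 to 6.31 ± 0.614 RPKM (SD, n = 3 each), with adjusted p of 1.26e-05, 1.5e-05 and 0.000212 from limma. Among those higher, Entpd5, Acpp and Entpd4 had the lowest p, with log2 fold changes of 0.46, 0.36 and 0.31, and Entpd5 and Entpd4 belong to the same enzyme family as Entpd1. Members of that family thus went both ways, since Entpd6 (log2 fold change -0.61) and Entpd2 (-0.37) fell. Entpd2 was weakly expressed, at 0.356 ± 0.118 RPKM in control and 0.0457 ± 0.0549 RPKM after the siRNAs (SD, n = 3), a level above only 4.4% of the genes tested. With libraries scaled to macrophage markers, none of the 5 higher genes of the list kept its call, and Entpd4 (-0.02) and Enpp1 changed sign. Under that scaling only 622 of all 13266 genes tested were higher, and 8271 were lower. Adk, the adenosine kinase, was lower as well, at 24.6 ± 1.22 RPKM in control and 19.4 ± 1.13 RPKM after the siRNAs (SD, n = 3; adjusted p = 0.00637 from limma). Its call was lost with median ratio scaling (limma adjusted p = 0.0524), after quantile normalization (0.0619) and relative to Gapdh (0.114).

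Downstream of the receptors, 22 of 25 genes of G proteins, phospholipase C beta, adenylyl cyclases and inositol trisphosphate receptors were tested (median log2 fold change -0.06). Of these, 8 were lower and 5 higher by limma, where 29.8% of all genes were lower and 14.7% higher. Adenylyl cyclases, which make the cyclic AMP through which Gs-coupled adenosine receptors act, were 4 of the 5 higher genes, while Adcy6 fell (log2 fold change -1.25). Adcy3 rose from 12.8 ± 0.653 to 23.7 ± 0.423 RPKM and Adcy7 from 43.4 ± 2.64 to 67.4 ± 3.12 RPKM (SD, n = 3 each), with adjusted p of 3.54e-05 and 0.000166 from limma, and Adcy9 had a log2 fold change of 0.36. Scaled to macrophage markers, 14 genes were lower and 2 higher, Adcy3 (0.49) and Adcy7 (0.26). Over all 13266 genes tested, 8271 were lower and 622 higher under that scaling. The 3 lower genes with the lowest p were Plcb4, a phospholipase C beta (log2 fold change -1.10), Gna11, a Gq family subunit (-0.94), and Gnai1, a Gi subunit (-1.14). The most abundant subunit genes, Gnai2 and Gnas, did not pass the test (adjusted p of 0.313 and 0.26 from limma), nor did Gnaq (0.736). Gnai3, the next in abundance after Gnas, was lower with the RPKM as deposited (log2 fold change -0.23, limma adjusted p = 0.0358). The call for Gnai3 was lost with median ratio scaling (limma adjusted p = 0.207), after quantile normalization (0.147) and relative to Gapdh (0.262).

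**Figure D4:**
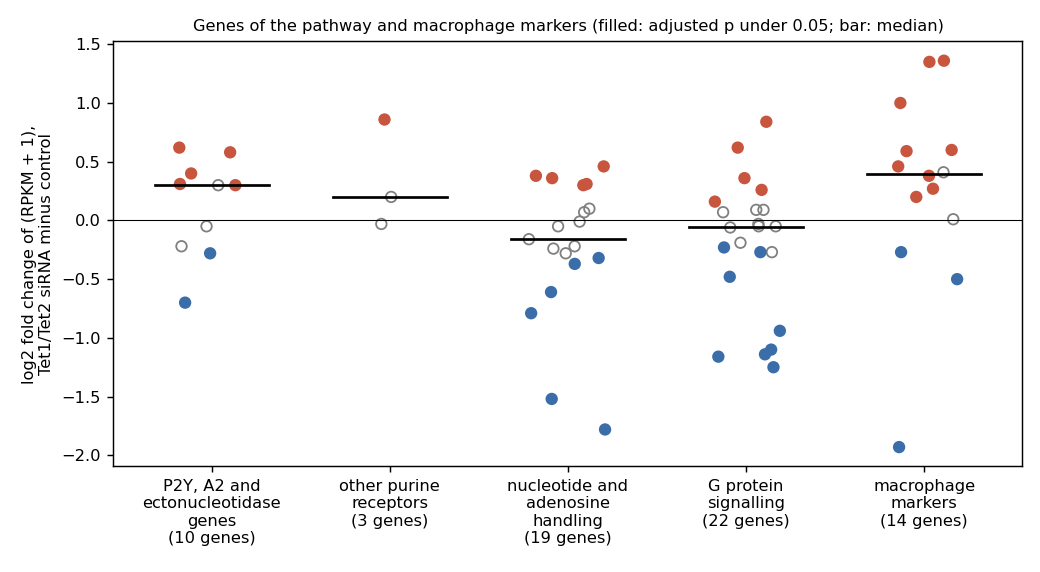
Log2 fold change of RPKM + 1 (y axis, Tet1/Tet2 siRNA minus control) of every tested gene in the 10 genes examined, 3 lists of the pathway and the macrophage markers. Filled points had an adjusted p under 0.05 from limma and the bars are medians, at 0.30 for the 10 genes, 0.20 for other purine receptors, -0.16 for nucleotide and adenosine handling, -0.06 for G protein signalling and 0.39 for macrophage markers.

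The cultures held more than stromal cells, and the cell type markers moved with the groups. Of 7 positive BMMSC surface markers, of which Nt5e is 1, 6 were tested and 4 were lower (Ly6a, Pdgfra, Pdgfrb and Eng), with a summed level of 209 to 235 RPKM in control libraries and 30.3 to 46.5 RPKM in siRNA libraries. Thy1 was at or under 0.146 RPKM throughout, and Ptprc, the leukocyte marker that BMMSCs should lack, was at 47.2 to 59.3 RPKM. All 7 stromal genes tested of 8 were lower (summed 1470 to 2020 RPKM against 203 to 424 RPKM). Of 14 macrophage markers, 9 were higher and 3 lower, and their sum went from 6410 to 8480 RPKM in control up to 14300 to 17500 RPKM after the siRNAs. Most of that sum was Lyz2 (4440 ± 783 RPKM in control and 11300 ± 1440 RPKM after the siRNAs, SD, n = 3 each). The median log2 fold change of the 14 markers was 0.39, and Fcgr1, Aif1 and Mrc1 fell. P2ry6, P2ry12, P2ry13 and Entpd1 are also known from macrophages or related cells, and the part of macrophage RNA in their differences was not tested. Among microglia markers, which bear on P2ry12, Tmem119 was lower (log2 fold change -1.57) and Cx3cr1 higher (0.57), and Sall1 and Siglech were at or under 0.079 RPKM. Platelet and megakaryocyte markers had 3 of 4 tested higher and summed to 180 to 284 RPKM and 541 to 648 RPKM, nearly all of it Pf4, while the defining Itga2b and Gp9 were at or under 0.170 RPKM.

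Among other cell types, 1 of 2 dendritic cell markers tested was higher (sum 7.05 to 8.92 and 9.44 to 10.5 RPKM). The 1 neutrophil marker tested, S100a8, was higher (sum 1.84 to 2.23 and 9.26 to 16.2 RPKM), with S100a9 at the lowest listed value in every library. Of 4 endothelial markers, 2 were lower and 1 higher (sum 2.41 to 2.88 and 1.35 to 1.46 RPKM). Of 4 lymphocyte markers none was tested, since their sums stayed at or under 0.049 RPKM. All 9 interferon response genes tested fell, from a sum of 1090 to 1190 RPKM to 163 to 206 RPKM. Whether any of these moved the genes described here was not tested.

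Scaling decided some of the calls. Over all genes, the median log2 fold change was -0.09 with the RPKM as deposited, 0.06 after quantile normalization and -0.37 when each library was scaled to the macrophage list, a setting chosen after seeing the data. Calls over all genes went from 3952 lower and 1953 higher to 2627 and 3607 after quantile normalization, and to 8271 and 622 relative to the macrophage list. Relative to that list, Entpd1 (log2 fold change 0.22, adjusted p = 0.0196 from limma) and P2ry1 (0.40) were still higher, Adora2b (-0.95) and Adora2a (-0.34) were still lower, P2ry2 (0.08, adjusted p = 0.538), P2ry6 (-0.06) and P2ry13 (0.00, adjusted p = 0.973) lost their calls, and P2ry14 (-0.37, adjusted p = 0.0377) and Nt5e (-0.38, adjusted p = 0.00602) were called lower. The split of the 10 genes was thus 5 higher to 2 lower as deposited, 6 to 1 after quantile normalization, 2 to 2 relative to Gapdh, and 2 to 4 relative to macrophage markers. Relative to Gapdh, P2ry2, P2ry6 and P2ry13 lost their calls at log2 fold changes (0.41, 0.32 and 0.33) no smaller than as deposited. Over all 18 alternatives, Adora2b stayed lower (-0.99 to -0.47), and Entpd1 (0.22 to 0.70) and P2ry1 (0.40 to 1.05) stayed higher, each with an adjusted p under 0.05 in every one.

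**Figure D5:**
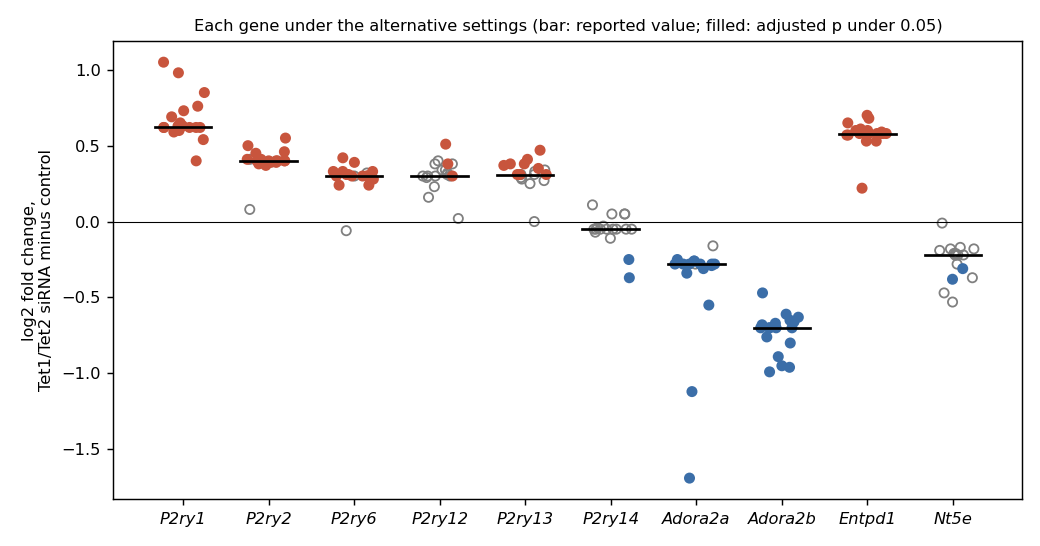
Log2 fold change (y axis, Tet1/Tet2 siRNA minus control) of each gene under the alternative settings (points, filled where the adjusted p was under 0.05) with the reported value as a bar. All points of Adora2b, Entpd1 and P2ry1 are filled, those of P2ry13 fall to 0.00, and P2ry6 (lowest -0.06) and P2ry14 (highest 0.11) cross 0.

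The genes whose pattern over the 6 libraries was most like that of Adora2b, by Pearson's r of log2(RPKM + 1) among the 11066 other genes averaging 1 RPKM or more, were Rbpj (r = 0.9987), Foxk2 (0.9987) and Glis2 (0.9983). For Entpd1 they were Smim14 (0.9995), Aldh6a1 (0.9988) and Gmfg (0.9981). These values are a description, since the libraries of a group share their treatment, and 1495 genes had r over 0.95 with Adora2b and 694 with Entpd1.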

How the data were processed

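RNA-seq of 6 libraries, 3 control and 3 Tet1/Tet2 siRNA, was examined. The authors converted base calls with bcl2fastq v1.8.4, trimmed adaptors, mapped paired reads to GRCm38 and estimated abundance with DNASTAR Lasergene v15.0. They deposited 1 table of RPKM on a linear scale (FPKM in the methods), with 36915 rows, of which 18360 stood at 0.001 in every library. Its p-value column is the authors' own comparison and was not used, and 0 columns of per-sample values were left unmapped. Which annotation was used, whether strand was counted and how reads with several matches were treated is not given in the sources used here.

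Of repeated rows (37 symbols), that with the highest mean entered. Log2(RPKM + 1) was compared between groups, two-sided, in the 13266 genes averaging 0.1 RPKM or more, with limma 3.58.1 (eBayes with trend) in R 4.3.3. The Benjamini-Hochberg adjustment ran over all of them. The steps were tested on simulated data. RPKM are not counts, so no count test was run. Log2 ratios of 2 genes were compared with exact permutation tests (scipy 1.17.1). Depth was set where low RPKM values of single-transcript genes were nearest to whole reads, and reads per gene were derived from it with the longest transcript. Gene positions and overlaps are from GENCODE M21 and promoter windows from RefSeq.

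The 10 genes and the lists (other purine receptors, nucleotide and adenosine handling, G protein signalling, cell type markers and interferon response genes) were chosen with earlier results of these data known. All 10 are named, with Tet1, Tet2 and P2rx7, genes overlapping them, up to 3 genes per direction and list with the lowest p among those with an adjusted p under 0.05 and groups that did not overlap, and the 3 genes most like the member with the lowest p in each direction. Other genes named from the lists (Adora3, Entpd2, Entpd6, Enpp1, Adk, Adcy5, Adcy6, Gnaq, Gnas, Gnai2 and Gnai3) and single markers were chosen after their values were seen. The summed level and counts of the microglia list are not reported here.

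The groups share replicate numbers. The correlation over genes of deviations from the group means was 0.149, 0.117 and 0.462 between libraries numbered 1, 2 and 3. All exceed 0.1, and a fit with these pairs as a replicate block was added. The pairing rests on these values alone, and control replicate 1 with siRNA replicate 2 reached 0.332. Alternatives were other pseudocounts, filters, scalings, variance models and fold rules, and each library left out.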

Additional observations from a re-analysis of the deposited data

How the results depend on the processing

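The 10 genes were tested under 18 alternatives, except that a mean of at least 1 RPKM left out Adora2a and Nt5e. The count of 2 lower genes at an adjusted p under 0.05 became 1 with that filter, 1 after quantile normalization, 1 with no filter on low values and 4 relative to the macrophage list, a setting chosen after seeing the data. The count of 5 higher genes became 2 relative to Gapdh, 3 with no filter and 2 relative to the macrophage list. Without a filter, 36870 genes entered the adjustment. With any 1 library left out, 2 to 3 were lower and 4 to 5 higher. With over 2-fold required, 0 lower genes became 1 (Adora2a) with a pseudocount of 0.1, with 0.01 and with the ratio of mean RPKM as the fold, and 0 higher genes became 1 (P2ry1) with a pseudocount of 0.01 and with the ratio of means, as the smaller pseudocount widens the change of low genes. The difference in the log2 ratio of Adora2a to Adora2b, 0.42, turned to -0.17 with a pseudocount of 0.1 and -0.69 with 0.01 (exact permutation p = 0.8 and 0.3), and was 0.32 to 0.55 with 1 library left out. That of Entpd1 to Nt5e was 0.75 to 0.92 with 1 library left out.

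Among single genes, P2ry6 reversed relative to the macrophage list (-0.06). P2ry14 reversed after quantile normalization (0.11), with median ratio scaling (0.05), and without control replicate 1 (0.05) or control replicate 2 (0.05), where the range with 1 library left out was -0.25 to 0.05. P2ry13 lost its call in 9 alternatives. P2ry12 gained one after quantile normalization (adjusted p = 0.00492), with median ratio scaling (0.0328) and with the replicate block (0.0327), which changed no other call among the 10 genes. The cause of these changes was not tested beyond what each setting alters. Genes called over all genes went from 5905 at an adjusted p under 0.05 to 8893 relative to the macrophage list and 3744 without a filter, and from 873 with over 2-fold to 1958 and 1728 with pseudocounts of 0.01 and 0.1 and 1930 with the ratio of means. Depth limits Adora2a most, at an estimated 5 to 15 reads per siRNA library.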
